A study of Mus musculus with 2 samples.

Results

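The 37 mitosis genes described here encode proteins that carry a cell through chromosome condensation, segregation and division. They were chosen by gene symbol for their known roles, and all 37 were found among the 27998 genes of the files. By role they are cyclins and CDK1 (Cdk1, Ccna2, Ccnb1, Ccnb2, Cks2) and mitotic kinases (Aurka, Aurkb, Plk1, Bub1, Bub1b, Ttk, Pbk). Cdc20 and Ube2c act in anaphase promotion, and Cdca3 was listed with them. Further groups are centromere and kinetochore genes (Cenpa, Cenpe, Cenpf, Spc25, Birc5, Cdca8) and spindle genes and motors (Tpx2, Kif11, Kif2c, Nusap1, Hmmr, Ckap2, Ckap2l, Tacc3). The last groups are genes of the spindle midzone and cytokinesis (Kif20a, Kif23, Prc1, Racgap1, Ect2, Anln) and the chromosome genes Top2a and Mki67.

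The study counted transcripts in single cells of mouse pancreas (strain C57BL/6, embryonic day 18.5) and holds 2 libraries: a control, and a knockout that the series names Dpy30∆P. Dpy30 is a shared subunit of the complexes that methylate histone H3 at lysine 4, and the question of the series is what these complexes do as pancreas progenitors are specified and differentiate. No treatment is named, and the sources used here give neither the deleted part of the gene nor the cells in which it was deleted. Filtering left 2611 control and 3233 knockout cells, whose median depths were 6831 and 6631 UMIs (unique molecular identifiers, each a captured transcript). With 1 library per group, no difference has a replicate check and no test across animals was possible. Dpy30 tags lay at 113 and 144 CPM (UMIs per 1000000 UMIs of the library or class) and were not lower in the library labelled knockout. Tags of a 3' library need not cover the deleted part, so they check neither the deletion nor the labels. Xist had 1 UMI in the control and 46550 in the knockout library, and the Y-linked Ddx3y had 1570 and 0. The animals' sex therefore differs along with the genotype, and their effects cannot be told apart. The libraries shared 12 cell barcodes among kept cells.

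In a dividing cell, cyclin B binds CDK1 and drives entry into mitosis, the spindle checkpoint kinases hold the cell until every kinetochore is attached, and the anaphase-promoting complex with CDC20 and UBE2C then destroys cyclin B and releases the sister chromatids. Most of these genes are transcribed in G2 and M phase, through the DREAM, MYB-MuvB and FOXM1 regulators that act at promoter elements called CHR, together with NF-Y at CCAAT boxes. In the late fetal pancreas, ductal, acinar and mesenchymal cells still divide, whereas commitment to the endocrine lineage through Neurog3 is known for exit from the cell cycle.

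Because this promoter layout is what the members are known to share, the RefSeq promoters (build GRCm38.p6) were searched for the CCAAT box and the CHR letters. Of the 37 members, 32 matched an entry, with 34 promoters in all, since Ect2 and Prc1 have more than 1. Aurkb, Ccna2, Kif20a, Pbk and Tpx2 were not matched. The letters CCAAT were searched on both strands, where the reverse reads ATTGG. The CHR form TTTGAA was searched likewise, with the reverse TTCAAA. The motifs overlapped in 0 member promoters. In the 250 bases before the start, CCAAT occurred in 29 of 34 member promoters (85.3%), against 33.8% of 32851 promoters of all genes. TTTGAA occurred in 13 of 34 (38.2%), against 16.0% of all. Both occurred together in 12 (35.3%), against 5.55%. The other CHR form, TTCGAA, occurred in 2 member promoters (5.88%) and 1.34% of all. Birc5, Nusap1, Anln and Tacc3 held neither CCAAT nor TTTGAA in this window, and Kif2c held TTTGAA alone. A match describes letters in a window and shows no binding. Printed next are the 160 bases before the start of 8 members that recur in the results, 5′ to 3′ on the gene's strand, with capitals for both motifs on either strand. The first 5 were picked among members that hold both motifs in this stretch, so they do not show how common the pattern is. The last 3, Nusap1, Plk1 and Spc25, do not hold both and are shown for contrast.
Top2a (chr11:99024190-99024349, minus strand): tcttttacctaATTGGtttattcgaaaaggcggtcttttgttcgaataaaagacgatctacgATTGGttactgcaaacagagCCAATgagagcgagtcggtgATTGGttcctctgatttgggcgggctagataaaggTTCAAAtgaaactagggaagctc
Ube2c (chr2:164769769-164769928, plus strand): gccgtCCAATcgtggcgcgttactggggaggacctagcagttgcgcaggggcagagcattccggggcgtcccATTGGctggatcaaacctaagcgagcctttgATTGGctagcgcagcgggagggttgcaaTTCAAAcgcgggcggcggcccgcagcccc
Cdk1 (chr10:69352913-69353072, minus strand): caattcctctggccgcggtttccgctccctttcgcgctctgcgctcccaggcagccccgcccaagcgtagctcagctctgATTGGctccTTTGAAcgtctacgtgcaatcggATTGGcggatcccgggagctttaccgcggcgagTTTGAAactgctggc
Mki67 (chr7:135716380-135716539, minus strand): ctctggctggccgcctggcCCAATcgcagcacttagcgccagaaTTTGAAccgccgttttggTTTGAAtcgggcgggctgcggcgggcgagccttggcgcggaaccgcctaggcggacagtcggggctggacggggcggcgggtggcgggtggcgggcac
Cdc20 (chr4:118437344-118437503, minus strand): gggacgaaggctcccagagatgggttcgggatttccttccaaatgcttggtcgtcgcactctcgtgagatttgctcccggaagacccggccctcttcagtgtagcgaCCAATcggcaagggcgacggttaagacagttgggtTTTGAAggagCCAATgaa
Nusap1 (chr2:119618138-119618297, plus strand): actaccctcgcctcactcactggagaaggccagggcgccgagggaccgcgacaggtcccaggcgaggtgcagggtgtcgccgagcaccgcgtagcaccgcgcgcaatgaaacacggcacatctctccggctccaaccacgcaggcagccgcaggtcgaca
Plk1 (chr7:122159275-122159434, plus strand): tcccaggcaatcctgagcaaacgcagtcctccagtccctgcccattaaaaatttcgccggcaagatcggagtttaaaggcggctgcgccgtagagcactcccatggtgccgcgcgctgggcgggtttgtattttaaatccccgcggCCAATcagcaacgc
Spc25 (chr2:69206214-69206373, minus strand): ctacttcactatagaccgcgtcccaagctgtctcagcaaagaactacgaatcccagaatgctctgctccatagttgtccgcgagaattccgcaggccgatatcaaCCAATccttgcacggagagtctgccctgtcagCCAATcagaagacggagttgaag

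Top2a held 4 CCAAT boxes in this stretch, the nearest 58 bases before the start, and 1 TTCAAA 23 bases before it. Ube2c held 3 CCAAT boxes, the nearest at 57 bases, and its TTCAAA at 29 bases. In Cdk1 the nearest of 2 CCAAT boxes lay at 48 bases and the nearest TTTGAA at 15 bases. Cdc20 held both close to the start, at 8 and 18 bases. Mki67 stood apart from these 4: the only CCAAT box of the printed stretch lay 141 bases before the start, with 3 in the 250-base window, and the nearest TTTGAA lay 98 bases before it. Spc25 held 2 CCAAT boxes, at 23 and 55 bases, Plk1 held 1 at 14 bases and Nusap1 held 0, and none of these 3 held TTTGAA.

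The members ranged widely in level. Top2a, the topoisomerase that untangles sister chromatids, had most UMIs (8091 over both libraries, 9.29% of all member UMIs). It was followed by Cks2, a CDK-binding subunit, with 6850, Ube2c with 5509 and Cenpf with 5115. Fewest were found for the checkpoint kinases Ttk (374 UMIs) and Bub1 (504 UMIs). These are levels of captured 3' tags, 1 per transcript, and do not scale with transcript length. Summed over the members, the control library held 40330 UMIs (1861 CPM) and the knockout library 46801 (1659 CPM).

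These UMIs sat in few cells. To set cells of unlike depth side by side, each cell was thinned to 2000 UMIs, which left out 75 shallower control and 114 knockout cells. After thinning, 62.8% of control and 61.7% of knockout cells held no member UMI, and 14.8% and 15.7% held 1. At the other end, single cells held up to 48 and 54. Cells with at least 5 thinned member UMIs are called member-high below. They numbered 401 of 2536 control cells (15.8%) and 458 of 3119 knockout cells (14.7%). This class is a range and not a type: 173 and 207 cells lay near its edge, with 3 to 7 UMIs. Among barcodes filled with haemoglobin, which are red cells or free RNA, 2 of 498 control and 3 of 694 knockout barcodes reached 5 UMIs, and 16.3% and 23.5% held at least 1, at median full depths of 2696 and 2780 UMIs. None of 16 neuron-like cells, which do not divide, was member-high. By gene, the share of UMIs that lay in member-high cells ran from 78.3% for Cdk1 and Spc25 to 94.6% for Nusap1, a microtubule-bundling protein of the spindle. Each gene's own UMIs count toward the call, so these shares are high in part by construction.

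Cells were clustered without cell cycle genes, so that dividing cells stayed with their own type, and classes were named from marker genes. Among the 5 main classes, ductal-like cells (Spp1, Sox9) held the members at the highest level in both libraries, and acinar-like cells and the endocrine family at the lowest. Levels are summed member UMIs in CPM of the class, with 95% Poisson intervals. Ductal-like cells had 2648 CPM (2607 to 2689) in the control library and 2707 (2662 to 2752) in the knockout library. Endothelial-like cells (Pecam1, Cdh5) had 2263 CPM (2191 to 2337) and 2414 (2320 to 2512), and mesenchymal-like cells (Col1a1, Pdgfra) had 1803 (1768 to 1838) and 2121 (2088 to 2155). Acinar-like cells had 850 CPM (792 to 912) and 712 (695 to 729), below the mesenchymal-like level in both libraries. The endocrine family, that is alpha-, beta- and progenitor-like cells together, had 740 (715 to 766) and 690 (655 to 727). The order of the 5 classes by summed level was the same in both libraries, with no overlap of neighbouring intervals in the control library and an overlap of none but acinar-like cells and the endocrine family in the knockout library. All intervals cover counting error only. UMIs of 1 cell are not independent, and a few cells hold most member UMIs, so intervals on the sums are too narrow, and the share of member-high cells is given beside them.

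**Figure D1:**
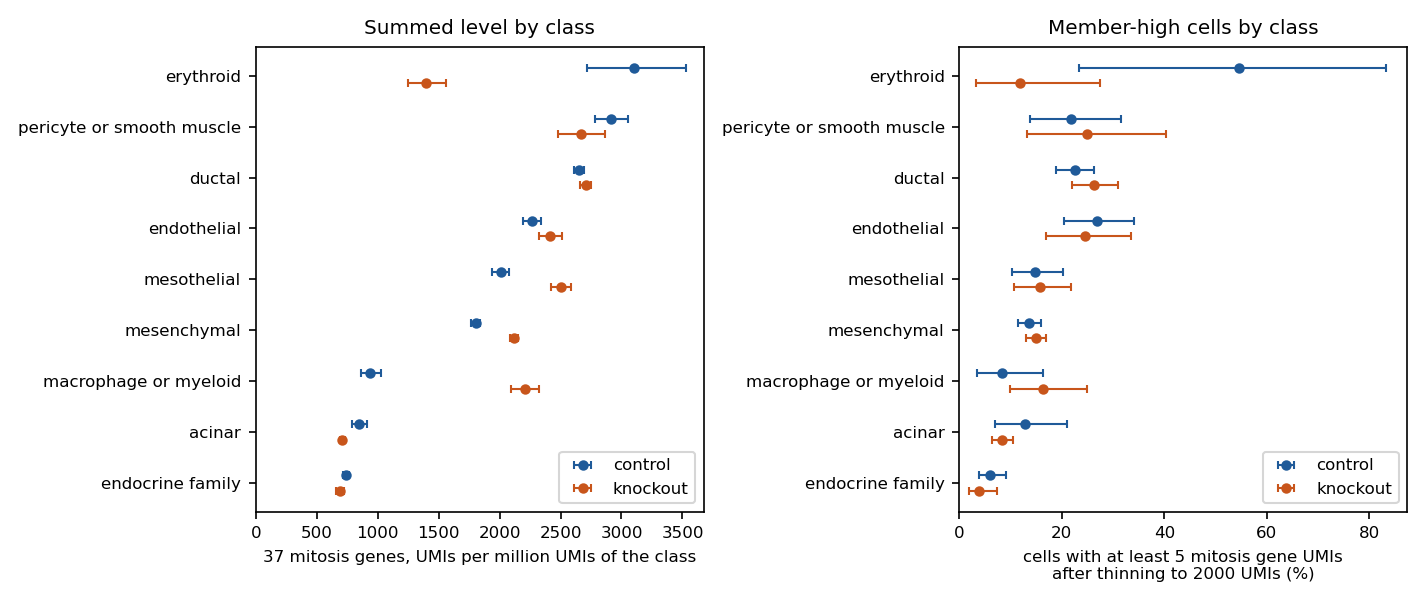
Summed level of the 37 mitosis genes (left, CPM) and share of member-high cells (right, percent of cells thinned to 2000 UMIs) in each class with at least 40 cells in both libraries (the 5 main classes and 4 others), with the control library in blue and the knockout library in orange. Points are values of 1 library and bars are 95% intervals for counting error; the endocrine family lies lowest in both panels, and the wide erythroid bars rest on 11 and 34 thinned cells.

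The shares of member-high cells were 22.5% in control (115 of 511, 19.0% to 26.4%) and 26.3% in knockout ductal-like cells (106 of 403, 22.1% to 30.9%). They were 26.9% (47 of 175) and 24.6% (28 of 114) in endothelial-like cells, and 13.6% (129 of 949) and 14.9% (183 of 1228) in mesenchymal-like cells. In the endocrine family they were 6.06% (22 of 363) and 3.95% (9 of 228). By share, the intervals of ductal- and endothelial-like cells overlapped in each library, and both classes lay above the endocrine family.

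Whether the members move together from cell to cell was examined by ranking them by UMIs and dividing them alternately into a set of 19 and a set of 18. Cells were called on 1 set (at least 3 thinned UMIs), and the other set, which had no part in the call, was measured. In the control library, the measured set was 26.7-fold (25.6 to 27.8) and 21.5-fold (20.7 to 22.3) higher in called cells than in other cells, according to which set made the call. In the knockout library it was 20.0-fold (19.3 to 20.6) and 18.3-fold (17.8 to 18.9) higher. Called cells were also deeper, with medians of 8969 against 6612 UMIs in the control library, which levels in CPM take into account. Within single classes the fold stayed far above 1. It was 39.1 and 29.3 in control and 41.6 and 29.7 in knockout mesenchymal-like cells. In ductal-like cells it was 21.01 and 24.7 in the control library and 11.2 and 8.94 in the knockout library. Cells outside the call held 218 and 186 CPM of the measured set in control and 302 and 426 CPM in knockout ductal-like cells.

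Every one of the 37 members was higher in the cells called on the set without it, in both libraries. In the control library the fold was greatest for Nusap1, whose level was 283 CPM in called and 2.82 CPM in other cells (101-fold, 75.5 to 137). Hmmr, a spindle assembly factor, followed with 147 and 1.73 CPM (84.9-fold, 58.9 to 127), and Plk1, the polo-like kinase, with 101 and 1.69 CPM (60.0-fold, 41.3 to 90.1). These are genes whose tags were nearly confined to called cells. Lowest in the control library were Spc25 (7.99-fold, 7.20 to 8.88), Cdk1 (13.4-fold), the spindle protein gene Tacc3 (13.7-fold) and Cks2 (15.2-fold). Other cells still held 24.6 CPM of Cdk1 and 38.4 CPM of Cks2, but only 4.38 CPM of Ccnb1, the partner of CDK1. In the knockout library Nusap1 (44.7-fold), Hmmr (30.1-fold) and Plk1 (24.7-fold) had lower folds than in the control library, and Spc25 a higher one (15.8-fold).

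**Figure D2:**
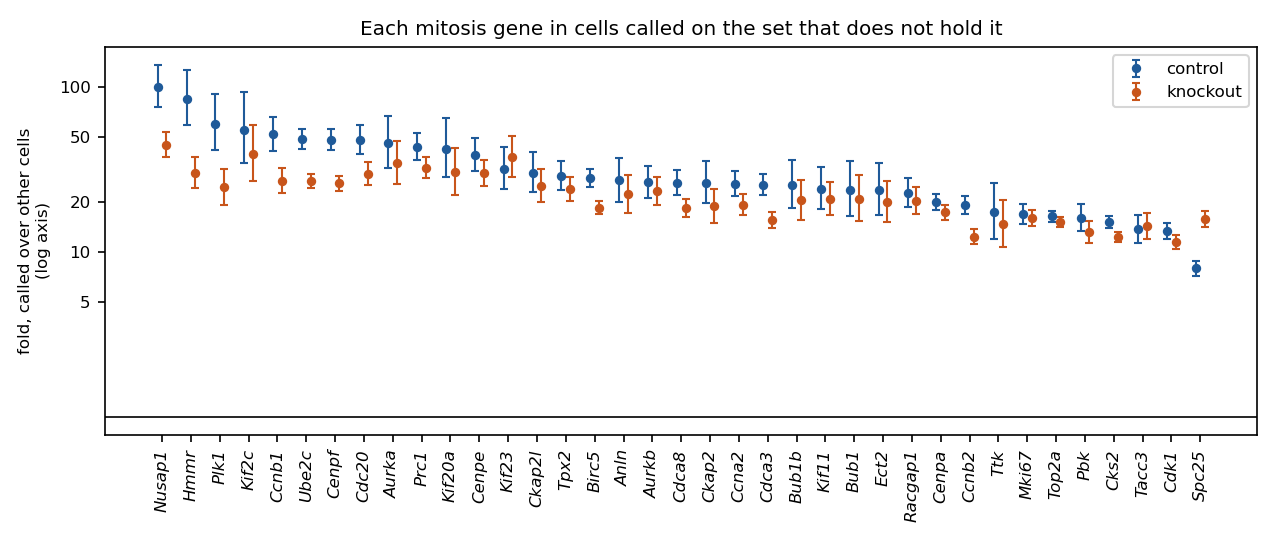
Fold difference of each of the 37 mitosis genes between cells called on the set of members that does not hold it and all other cells (log axis), for the control library in blue and the knockout library in orange, with 95% intervals for counting error. Every gene lies above the line at 1, from 101-fold for Nusap1 to 7.99-fold for Spc25 in the control library.

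Other genes of the cell cycle were compared between member-high and other cells. Of 47 further mitosis genes with at least 20 UMIs in the control library, 47 were at least 1.5-fold higher in member-high cells, where 11% of 13967 genes were, with a median of 24.5-fold. In the knockout library it was 46 of 46, where 15.1% of genes were, with a median of 22.05-fold. Aspm, a spindle pole protein, stood at 71.2 against 0.817 CPM in the control library (87.1-fold, 51.2 to 161) and at 79.8 against 1.41 CPM in the knockout library (56.8-fold). Bub3, whose protein also takes part in other steps, was the lowest of these with 224 against 62.1 CPM (3.61-fold). Genes of S phase followed the members less closely: 28 of 34 in the control and 31 of 34 in the knockout library were at least 1.5-fold higher, with medians of 2.30 and 2.71. Among them Rrm2, a subunit of ribonucleotide reductase, was 6.88-fold and 7.83-fold higher, whereas Mcm2 of the replicative helicase was 1.21-fold and 1.33-fold higher.

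Among known regulators, Foxm1 stood at 26.1 CPM in member-high and 0.817 in other control cells (32.0-fold, 18.3 to 60.3), and at 27.8 and 0.703 CPM in knockout cells (39.6-fold, 23.6 to 71.0). Mybl2, the MYB partner of MuvB, was 6.43-fold and 5.91-fold higher. Genes that encode CDK inhibitors were not all low in these cells. Cdkn2c, an inhibitor of CDK4 and CDK6, was 17.5-fold (11.99 to 26.1) and 15.2-fold (10.9 to 21.7) higher in member-high cells, and Cdkn2d was 5.29-fold and 6.23-fold higher. Cdkn1a, the p53 target that halts the cycle, stood at 72.3 against 89.4 CPM in control (0.809-fold) and 115 against 130 CPM in knockout cells (0.888-fold).

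Markers of the class itself were lower in member-high cells of some classes and not of others. Of 14 acinar markers measured in control acinar-like cells, 8 were at least 1.5-fold lower in the 13 member-high cells, where 12.5% of genes were. In the knockout library it was 7 of 15, where 12.1% were. Ctrb1, a chymotrypsinogen, stood at 45143 against 85604 CPM in control (0.527-fold, 0.514 to 0.541) and at 25442 against 44780 CPM in knockout cells (0.568-fold). Cel, the bile salt lipase, was 0.432-fold and 0.447-fold. Gp2, a zymogen granule protein, differed in direction, at 3.33-fold (1.35 to 7.80, on 10 and 16 UMIs) in control and 0.528-fold in knockout cells. All 13 control member-high cells lay in 1 acinar cluster (cluster 5 below), whereas the 61 knockout ones were 39 of cluster 5 and 22 of cluster 4, which holds most other knockout acinar-like cells and has Cel among its markers. The knockout values therefore mix clusters. The acinar factor Ptf1a lay closer, at 0.712-fold (0.416 to 1.15) and 0.788-fold (0.674 to 0.916). Among 13 ductal markers, 2 were 1.5-fold lower in each library, where 10.2% and 8.75% of genes were. One of them was Krt19, a keratin, at 190 against 306 CPM (0.619-fold) and 106 against 210 CPM (0.506-fold). Of 14 mesenchymal markers, 0 of control and 1 of knockout were lower, where 14.9% and 12.8% of genes were. Of 9 mesothelial markers in mesothelial-like cells, 0 were lower in either library, where 19.6% of control and 17.8% of knockout genes were. The endocrine family joins several types, so its markers are given beside the types that held its member-high cells. By the sub-clusters described below, 16 of its 22 control member-high cells were beta-like, none was progenitor-like and 2 lay in sub-clusters led by other types. Of 9 knockout ones 4 were beta-like and 5 lay in sub-clusters led by other types. In the main clustering, the progenitor-led cluster 14 held 2 control and 3 knockout member-high cells. Spc25, which departs from the other members in endocrine cells as described below, counts toward this call. Of 11 beta markers measured in the control library 1 was higher and 0 lower (13.6% and 27.3% of genes were), and of 10 in the knockout library 6 were higher and 1 lower (12.4% and 36.3%). Ins1, an insulin gene, stood at 86603 against 62220 CPM in control (1.39-fold) and 71600 against 21617 CPM in knockout cells (3.31-fold). These are sums over cells, and in the knockout library the median cell went the other way. It drew 0.145% of its UMIs from the beta list among member-high cells and 0.332% among other cells. In the control library these medians were 34.2% and 2.54%. Of alpha markers, 4 of 10 and 7 of 9 were lower, and of progenitor markers 8 of 11 and 6 of 11. Neurog3, the progenitor factor, stood at 69.4 against 369 CPM and at 267 against 769 CPM. Markers of other types moved with this call in the knockout library. Of 6 mesenchymal markers measured in ductal-like cells, 4 were at least 1.5-fold higher in member-high cells, where 11.1% of genes were, against 0 of 6 in the control library, where 11.1% were, and the median cell drew 0.0502% of its UMIs from the whole mesenchymal list in knockout and 0.0567% in control member-high cells. Endothelial and macrophage markers took a median of 0 in both. Their part in the results was not tested.

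Knockout and control were then compared class by class, with ratios as knockout over control. A gene is called higher or lower where its level differs by at least 1.5-fold, among genes with at least 20 UMIs in the class over both libraries. A gene can pass this minimum through 1 library alone, the one where it is higher.

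Ductal-like cells as a whole showed nearly equal member levels, with a ratio of 1.02 (0.999 to 1.05) for the sum and 1.17 (0.929 to 1.47) for the share of member-high cells. This depends on how the class is drawn: with cell cycle genes kept in the clustering, the ratios were 1.72 (1.65 to 1.79) and 1.54. In that clustering dividing cells may leave the class for other clusters, so these ratios may describe other cells. At full depth in the main clustering the shares were 35.1% and 44.7%. Of 37 members, 1 was called higher, where 6.08% of all genes were, and 1 lower, where 5.65% were. The median log2 ratio was 0.02, against 0.03 over all genes. Beneath this, single members differed in direction. Lower in the knockout library was Cdc20, the activator of the anaphase-promoting complex, at 110 and 72.2 CPM (0.653, 0.574 to 0.743). Ccnb1 stood at 85.8 and 64.3 CPM (0.750, 0.651 to 0.863) and Plk1 at 35.98 and 28.8 CPM (0.801, 0.645 to 0.992). Of these 3, Cdc20 alone passed the 1.5-fold line. Higher was the checkpoint kinase Ttk, at 8.496 and 13.5 CPM (1.59, 1.09 to 2.33). The motor Kif11, which separates the spindle poles, had 22.3 and 31.2 CPM (1.40, 1.10 to 1.77), and the kinase Pbk had 41.0 and 55.1 CPM. Top2a (180 and 224 CPM, 1.24), Mki67 (64.1 and 82.2 CPM, 1.28) and Birc5, the survivin subunit of the chromosomal passenger complex (109 and 140 CPM, 1.28), were above 1, and Cdk1 (123.4 and 114 CPM) and Cks2 (215 and 211 CPM) lay near 1.

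The ductal-like class joins 2 clusters held unequally by the libraries, and within each the members were lower in the knockout library. Cluster 3 (Spp1, Ces1d) holds most control ductal-like cells, 405 of 519, and cluster 7 (Wfdc2, Krt17) most knockout ones, 261 of 405. In cluster 3 the sum was 2310 CPM in control and 1794 in knockout cells (0.777, 0.747 to 0.808), with member-high shares of 17.8% and 13.9% (0.781, 0.494 to 1.23). In cluster 7 it was 4195 and 3200 CPM (0.763, 0.737 to 0.790), with shares of 40.6% and 33.2% (0.819, 0.614 to 1.09). The intervals of both share ratios hold 1. In cluster 3, 0 of 37 members were called higher and 11 lower, where 5.27% and 7.69% of genes were. In cluster 7 it was 1 and 10, where 13.2% and 6.83% were. The members called lower in both clusters were Ccnb2, Cdc20, Aurka and Plk1. Cdc20 had 100 and 64.8 CPM in cluster 3 (0.645) and 156 and 76.1 CPM in cluster 7 (0.487, 0.399 to 0.595). Ccnb1 had 138 and 65.3 CPM in cluster 7 (0.474, 0.382 to 0.588), but 74.5 and 62.6 CPM in cluster 3 (0.840). Top2a stayed within 1.5-fold in both, with 147 and 139 CPM in cluster 3 and 328 and 269 CPM in cluster 7. Birc5 had 171 and 171 CPM in cluster 7. With the knockout clusters weighted by the control's numbers of cells, the ratio of the sum was 0.796 in place of 1.02.

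**Figure D3:**
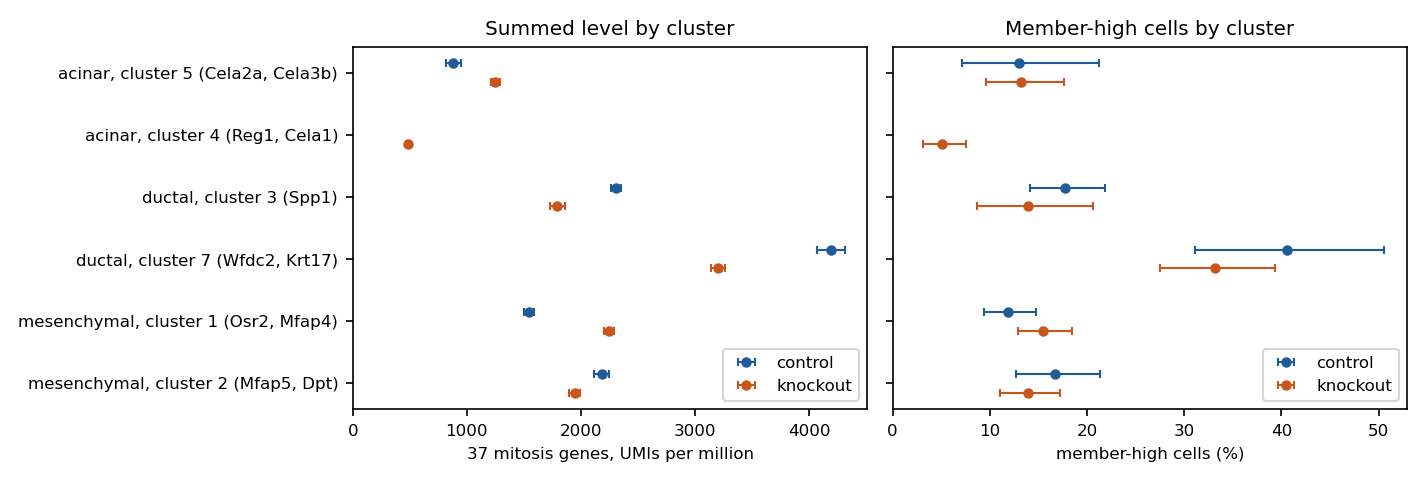
Summed level of the 37 mitosis genes (left, CPM) and share of member-high cells (right, percent) in the larger clusters of the acinar-, ductal- and mesenchymal-like classes, for the control library in blue and the knockout library in orange, with 95% intervals for counting error. Both ductal clusters lie lower in the knockout library and mesenchymal cluster 1 lies higher; acinar cluster 4 is shown for the knockout library alone, since 1 control cell falls in it.

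Genes around the members had mostly ratios over 1 in the ductal-like class as a whole. These lists were not compared within its single clusters, which the libraries hold unequally. Their ratios therefore cannot be set beside the cluster values of the members. Of 34 S phase genes, 5 were called higher and 0 lower, where 6.08% and 5.65% of all genes were, and 32 had a ratio over 1, with a median log2 ratio of 0.35. Cyclin E1 (Ccne1), which drives entry into S phase, had 2.50 and 8.04 CPM (3.22, 1.74 to 6.26). Mcm10 of the replication fork had a ratio of 1.85 (1.23 to 2.83), and Dut and Slbp, the most abundant of the list, were not called. Of 45 further mitosis genes, 3 were higher, a share near that of all genes, and 0 lower, with Ncapd2 of condensin at 1.71 and the centromere gene Cenpm at 1.58. Among 13 regulators, 3 were higher: Foxm1 (6.83 and 10.6 CPM, 1.55, 1.01 to 2.39), Mybl2 (1.70) and Lin52 of the MuvB core (1.93). Foxm1 was picked out after its value was seen. Of 5 CDK inhibitors, 1 was lower, Cdkn1b, at 35.98 and 22.5 CPM (0.627).

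In acinar-like cells the summed level was lower in the knockout library, with a ratio of 0.837 (0.778 to 0.902). The member-high share was 12.9% (13 of 101) and 8.33% (61 of 732), a ratio of 0.647 whose interval of 0.369 to 1.14 holds 1. Full median depths were 6017.5 and 11641.5 UMIs, and without thinning the shares were 19.8% and 22.9%, in the other order. Of 37 members 6 were called higher, where 30.8% of genes were, and 5 lower, where 8.29% were. The median log2 ratio of the members was −0.21, against 0.24 over all genes. Those called lower were Plk1 (21.5 and 10.1 CPM, 0.471, 0.289 to 0.804), Cdc20 (43.0 and 20.4 CPM, 0.473, 0.336 to 0.682), Ube2c (89.3 and 53.2 CPM, 0.596, 0.472 to 0.760), Cdk1 (39.8 and 24.7 CPM, 0.621) and Bub1. Bub1 rests on 5 control and 31 knockout UMIs, and its interval holds 1 (0.584, 0.225 to 1.92). Cdc20 and Ube2c, which act in anaphase promotion, were thus both lower, and Cdca3, listed with them, stood at 0.945. Top2a (80.7 and 53.8 CPM, 0.667), Ccnb1 (28.0 and 19.7 CPM) and Mki67 (34.4 and 25.3 CPM) were below 1 without passing 1.5-fold. Several called higher rest on very few control UMIs, as for the cytokinesis scaffold Anln with 1 and 36 UMIs (3.39, 0.571 to 138), the midzone motor Kif23 with 2 and 53 UMIs and the depolymerase Kif2c with 2 and 47. Cenpf, at 18.3 and 35.7 CPM (1.95, 1.20 to 3.39), does not.

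The acinar-like direction turns with the clusters counted. Of the knockout cells 443 lay in cluster 4 (Reg1, Cela1), which holds 1 control cell, and there the members stood at 484 CPM (468 to 501), with 22 of 437 cells member-high (5.03%). Cluster 5 (Cela2a, Cela3b) holds 105 control and 307 knockout cells. Within it the sum was 882 CPM (821 to 946) in control and 1248 (1208 to 1289) in knockout cells, a ratio of 1.42 (1.31 to 1.53), whereas the member-high shares were close, at 13% and 13.2% (1.02, 0.566 to 1.83). Of 35 members measured there, 17 were called higher, where 14.1% of genes were, and 0 lower, where 8.86% were. Tpx2, which activates Aurora A on the spindle, had 8.94 and 27.6 CPM (3.08, 1.49 to 7.38). Cenpf had 19.0 and 42.9 CPM (2.26), and Cdca8 of the passenger complex 23.5 and 49.7 CPM (2.12). Cdc20 (44.7 and 42.2 CPM) and Plk1, which led the lower members of the whole class, lay near 1. Median depths in this cluster were 5962 and 8111 UMIs, and with all cells at their full depth 20.0% and 29.0% held at least 5 member UMIs.

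**Figure D4:**
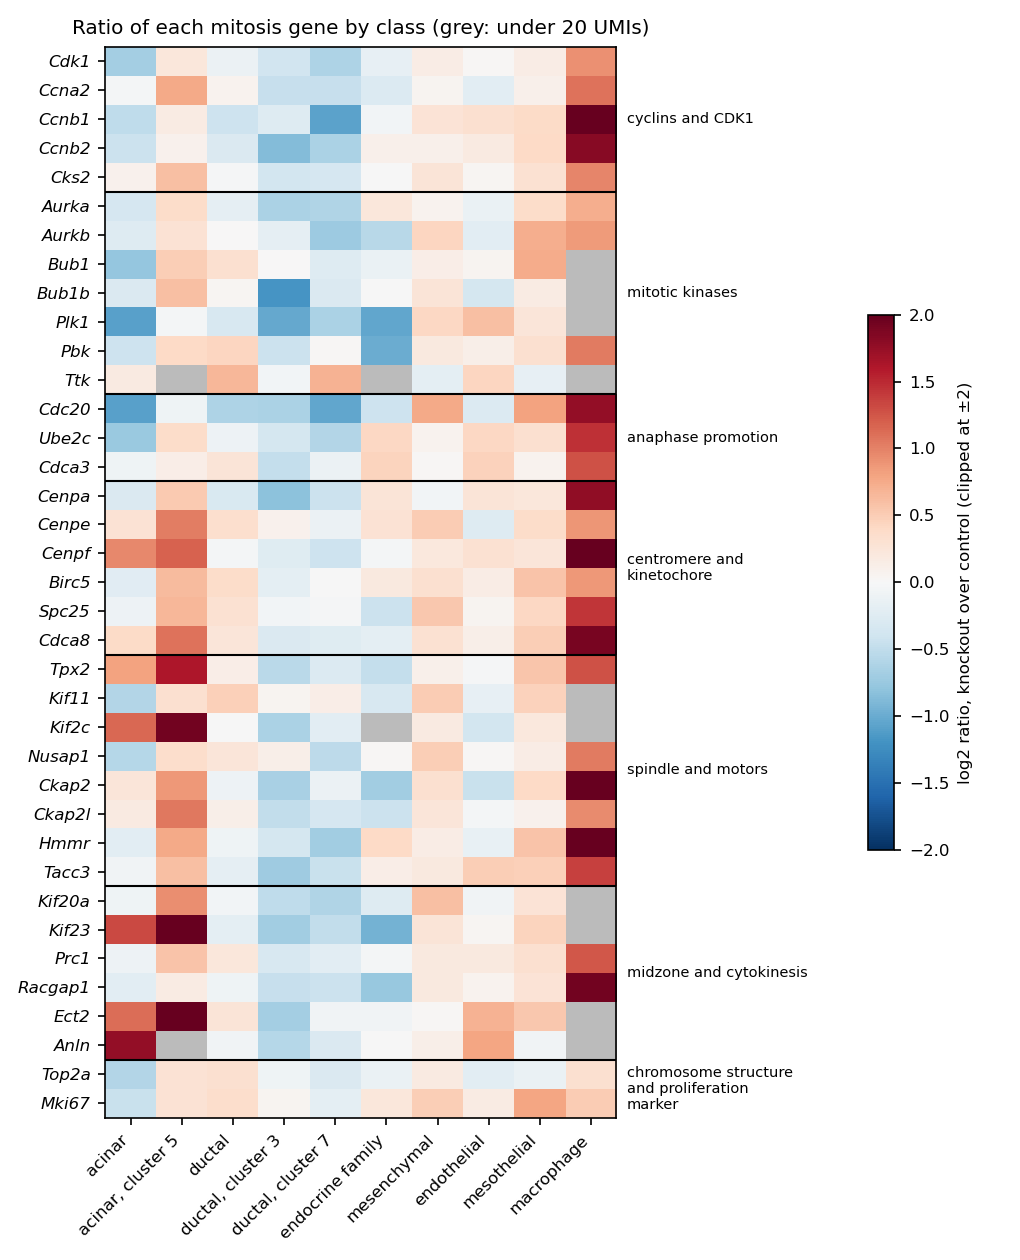
Log2 ratio of knockout over control for each of the 37 mitosis genes (rows, grouped by role) in each class and in single acinar and ductal clusters (columns), with red for higher and blue for lower in the knockout library, clipped at ±2, and grey for genes with under 20 UMIs. The acinar column and its cluster 5 differ in colour for many genes, the columns of both ductal clusters are mostly blue, and the mesenchymal, mesothelial and macrophage columns are mostly red.

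Of the surrounding lists in acinar-like cells, 11 of 34 S phase genes were called lower and 4 higher, where 8.29% and 30.8% of all genes were. In cluster 5 alone it was 3 lower and 5 higher of 31, where 8.86% and 14.1% were, and 18 had a ratio over 1, so the direction of this list turned too. Ccne1 had 8.61 and 3.45 CPM (0.400, 0.182 to 1.00). Of 41 further mitosis genes 9 were higher and 8 lower in the whole class, against the same shares of all genes, among them Ska1 and Ncapg, both with 1 control UMI. In cluster 5, 19 of 31 were higher and 0 lower. Of 4 CDK inhibitor genes 2 were higher, among them Cdkn1b with 1 and 83 UMIs, while Cdkn1c (160 and 233 CPM, 1.45) and Cdkn1a (1.41) were below the 1.5-fold line.

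Mesenchymal-like cells held the members at a slightly higher level in the knockout library, with a ratio of 1.18 (1.15 to 1.21), and 35 of 37 members had a ratio over 1. The ratio of member-high shares was 1.10 (0.890 to 1.35), which includes 1. With cell cycle genes kept in the clustering it was 5.23, with an interval of 0.613 to 44.6, and there too dividing cells may have left the class. The size was small: 2 members were called higher, where 3.97% of genes were, and 0 lower, where 6.7% were. The median log2 ratio was 0.20, against −0.01 over all genes. Cdc20 had 31.2 and 52.7 CPM (1.69, 1.41 to 2.03), the reverse of its direction in ductal-like cells. Kif20a, a motor of the spindle midzone, had 10.2 and 15.4 CPM (1.51, 1.09 to 2.11). Spc25 had 53.8 and 78.1 CPM (1.45), Mki67 59.2 and 82.9 CPM (1.40) and Birc5 104 and 130 CPM (1.25). Top2a (224 and 255 CPM, 1.13) and Cks2 (130 and 156 CPM, 1.20) had the most UMIs, and Ttk (0.869) and the centromeric histone gene Cenpa (112 and 108 CPM, 0.967) were the members below 1. The 2 larger mesenchymal clusters went opposite ways. In cluster 1 (Osr2, Mfap4) the sum was 1548 and 2247 CPM (1.45, 1.40 to 1.503), with member-high shares of 11.9% and 15.5% (1.31, 0.988 to 1.73). In cluster 2 (Mfap5, Dpt) it was 2181 and 1945 CPM (0.891, 0.858 to 0.927), with shares of 16.7% and 13.9% (0.837, 0.601 to 1.16). Among surrounding genes, 3 of 46 further mitosis genes were higher, led by Cdca5 (1.73) and Psrc1 (1.65), and 0 of 34 S phase genes and 0 of 13 regulators passed in either direction. Cdkn1c, the inhibitor p57, was the most abundant CDK inhibitor gene, at 2311 and 1752 CPM (0.758).

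In the endocrine family the summed level differed little, with a ratio of 0.932 (0.875 to 0.992), and the share ratio was 0.651 (0.305 to 1.39), or 1.02 (0.401 to 2.59) with cells thinned to 1000 UMIs. Without thinning, 18.4% and 9.21% of cells held at least 5 member UMIs, at median depths of 9307 and 7346. Of the members, 35 had at least 20 UMIs; 0 were called higher, where 21.1% of genes were, and 5 lower, where 6.18% were. The median log2 ratio was −0.06, against 0.25 over all genes. Lower were Plk1 (6.94 and 3.38 CPM, on 30 and 7 UMIs, 0.487, 0.181 to 1.13), Pbk (23.1 and 11.6 CPM, 0.501, 0.307 to 0.789), Kif23 (0.522), Racgap1 and Ckap2. Ube2c went the other way, with 45.1 and 60.4 CPM (1.34, 1.06 to 1.68), as did Cdca3 (21.8 and 29.5 CPM) and Hmmr (1.31), none past 1.5-fold. Of 33 S phase genes 12 were lower and 1 higher, with Pcna at 36.6 and 19.3 CPM (0.529, 0.364 to 0.752), a gene picked out after its value was seen. The further mitosis genes had 12 lower and 3 higher of 35. Cdkn1a stood at 169 and 497 CPM (2.94, 2.68 to 3.24) and Cdkn1c at 36.6 and 101 CPM (2.76, 2.24 to 3.42). Cdkn1a is also one of the progenitor markers used to name clusters. The progenitor-led cluster 14 held 53 of 365 control and 65 of 228 knockout cells of the family. Values of these 2 genes within single types are not given, so the part of the makeup was not tested.

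The family was then divided into 8 sub-clusters, because its makeup differs between the libraries. The progenitor-like sub-cluster, led by Neurog3, held the members at 97.8 CPM (59.7 to 151) in control and 115 (76.4 to 166) in knockout cells. None of 33 and none of 34 was member-high, which allows shares of up to 9.09% and 8.82%, taken as 3 cells of the total (the exact 95% upper limits are 10.6% and 10.3%). This low level depends on the sub-clustering. The progenitor-led cluster 14 of the main clustering stood at 911 CPM (832 to 995) in control and 490 (435 to 550) in knockout cells. There 2 of 53 and 3 of 65 cells were member-high. The 2 beta-like sub-clusters together had 932 CPM (895 to 970) and 1856 (1733 to 1985), a ratio of 1.99 (1.84 to 2.15), but the member-high cells behind these sums were 16 of 157 (10.2%) and 4 of 34 (11.8%). So the knockout sum rests on 4 cells, which held 91.0% of its member UMIs. Alpha-like cells had 376 (333 to 422) and 118 CPM (75.5 to 175), with 3 of 92 and 0 of 26 member-high, and delta-like cells had 115 and 66.5 CPM. A sub-cluster of 79 knockout and 2 control cells, led by Xist, Pou3f4 and acinar transcripts and left without a name, had 142 CPM (113 to 177) and 0 of 79 member-high. Without it and the sub-clusters led by ductal and mesenchymal genes, the family stood at 684 CPM (659 to 710) in control and 812 (760 to 866) in knockout cells, so the ratio turned to 1.19 (1.10 to 1.28), while the share ratio stayed below 1 at 0.553 (0.193 to 1.59). In the family as a whole, mesenchymal markers were higher in member-high cells for 9 of 11 markers in the knockout library, where 12.4% of genes were, and 6 of 7 in the control library, where 13.6% were. Their part in the sums was not tested.

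Spc25, a subunit of the NDC80 complex that ties kinetochores to microtubules, departed from the other members in endocrine cells. It made up 17.9% of control and 14.2% of knockout member UMIs in the endocrine family, more than any other member there, against 2.36% and 2.85% in ductal-like and 2.98% and 3.68% in mesenchymal-like cells. Its level in the beta-led cluster 10 was 184 CPM (168 to 201) in control and 229 (193 to 268) in knockout cells. That is above its level in the ductal-like class (62.5 and 77.3 CPM), although the other 36 members stood at 683 and 1086 CPM in the beta-led cluster and at 2585 and 2630 CPM in ductal-like cells. In the alpha-led cluster 9 it had 59.1 and 43.4 CPM, and in the progenitor-led cluster 14 it had 16.5 and 29.2 CPM. Within the progenitor-like sub-cluster, no Spc25 UMI was found in the 33 and 34 cells.

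**Figure D5:**
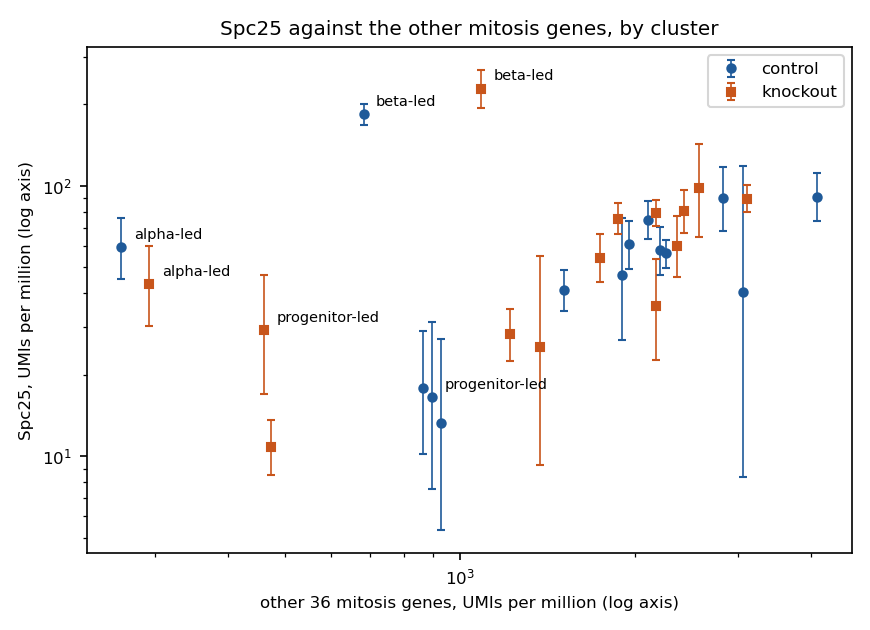
Level of Spc25 against the summed level of the other 36 mitosis genes (both in CPM, log axes) in each cluster with at least 40 cells of the library, for the control library as blue circles and the knockout library as orange squares, with 95% Poisson intervals for Spc25. The beta-led cluster lies highest, at 184 and 229 CPM, above clusters whose other members stand higher.

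The departure was also seen in cells that held no UMI of any other member. Among cells of the beta-like sub-clusters without any UMI of the other 36 members, 24 of 66 control cells (36.4%, 24.9% to 49.1%) and 7 of 21 knockout cells (33.3%, 14.6% to 57.0%) held a Spc25 UMI. The same share was 16.4% (9 of 55) and 25% (4 of 16) in alpha-like cells. In mesenchymal-like cells it was 0.426% (2 of 469) and 1.40% (8 of 571), in ductal-like cells 4.12% (4 of 97) and 9.09% (6 of 66), and in acinar-like cells 0% (0 of 42) and 0.397% (1 of 252). These cells were not thinned, so their depth differs between types. Spc25 lies on the minus strand of chromosome 2 (69193895 to 69206194, GRCm38), and its neighbour G6pc2 on the plus strand (69211073 to 69227841), with 4878 bases between the starts of the 2 genes, which point away from each other. G6pc2 encodes the glucose-6-phosphatase subunit of beta cells and had 294 and 231 CPM in the beta-like sub-clusters, and 1.00 and 0 CPM in ductal-like cells. In alpha-like cells it had 21.3 and 34.4 CPM, where Spc25 had 77.3 and 63.8 CPM. A link between the 2 genes was not tested. The genes do not overlap in the annotation. Without Spc25, the ratio of the endocrine sum was 0.974 (0.909 to 1.04) in place of 0.932. The ratio of the endocrine member-high shares was then 0.843 (0.382 to 1.86) in place of 0.651.

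Endothelial-like cells held the members at nearly the same level, with a ratio of 1.07 (1.01 to 1.12) for the sum and 0.915 (0.611 to 1.37) for the share. Of 37 members 3 were higher, where 7.61% of genes were, and 0 lower, where 9.71% were, and the median log2 ratio was 0.06. The higher ones were Anln (18.8 and 32.5 CPM, 1.72, 1.02 to 2.91), the RhoA activator gene Ect2 (1.62, 0.795 to 3.30) and Plk1 (18.8 and 28.5 CPM, 1.52, 0.881 to 2.60). Anln and Ect2 both serve cytokinesis, but Kif20a, Kif23, Prc1 and Racgap1 of the same group lay between 0.957 and 1.14. Top2a (244 and 212 CPM, 0.869), Cenpa (207 and 247 CPM, 1.19) and Cks2 (174 and 179 CPM, 1.03) had most UMIs. Of 33 S phase genes 0 were higher and 4 lower, led by Clspn (0.470, 0.270 to 0.782).

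Outside the 5 main classes, mesothelial-like cells had 2009 and 2501 CPM (1.24, 1.19 to 1.31), with 34 of 37 members over 1. Of them 4 were called higher, where 7.16% of genes were, and 0 lower, where 9.97% were. They were Cdc20, Mki67, Aurkb and Bub1. Their member-high shares were 14.7% and 15.7%. Among these classes, macrophage-like cells had the highest ratio of the sum, at 940 CPM (860 to 1027) and 2207 (2094 to 2325), a ratio of 2.35 (2.12 to 2.60). Of 27 members measured there, 25 were called higher, where 10.1% of genes were, and 0 lower, where 12.8% were. Top2a and Mki67 were the 2 not called. The member-high cells were 7 of 84 (8.33%) and 17 of 104 (16.3%), a share ratio of 1.96 whose interval of 0.854 to 4.51 holds 1. Those 17 cells held 91.1% of the member UMIs of the thinned knockout cells, so the 25 members called higher are not separate results. Pericyte-like cells had 2917 and 2665 CPM, with shares of 21.7% and 25%. Erythroid-like cells (Alas2) went the other way, at 3101 CPM (2713 to 3529) and 1398 (1252 to 1557), a ratio of 0.451 (0.380 to 0.536). Their member-high cells were 6 of 11 and 4 of 34, a share ratio of 0.216 (0.0742 to 0.627), which does not include 1. These cells were shallow, with medians of 1352.5 and 1519 UMIs, so that most of the 46 control and 99 knockout cells lay below the thinning depth and dropped out of the shares.

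The authors' deposited table of cluster genes lists 36 of the 37 members, in 5 of its 14 clusters. In the authors' deposited table, 32 of them stand in cluster 12, which opens with Cenpf, Prc1, Cks2 and Nusap1. For Cenpf the authors' deposited table gives detection in 100% of cells of that cluster and 70.9% of the others. The same table places 9 members in cluster 7, which opens with Ppp1r1a and Nnat. Among these 9, Spc25 and Pbk are the ones that the authors' deposited table gives as detected more often inside the cluster than outside, Spc25 with 81.5% against 75.3%. These detection rates are far above the UMI-based shares given here, in which 15.8% of kept cells held a Cenpf UMI and 17.8% a Spc25 UMI, and the sources used here do not say from which cells or values they were computed.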

How the data were processed

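The deposited matrices hold raw UMI counts per gene and cell barcode, made with Cell Ranger 3.0.0 per the file headers; the submitters' processing notes name Seurat 2 and 3 and builds GRCm38 and mm10. The authors' deposited table of cluster genes gives p-values across cells, the fraction of cells with each gene, and an average log fold change, treated here as a score of unstated base; of these, the fractions were used, as percentages. Reads were from a 10x 3' library of trypsin-digested pancreas, per the labels' protocols.

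Of 3986 control and 4779 knockout barcodes, 1290 and 1465 had fewer than 500 genes, a further 63 and 57 exceeded 10% mitochondrial transcripts, and Scrublet called 22 and 24 as doublets; all were left out. Cells were clustered (scanpy 1.11.5, 2000 variable genes, 30 components, 15 neighbours, Leiden resolution 1, Python 3.11.15) without cell cycle genes and with genes correlated with a cycle score above 0.15 left out. Clusters were named from at least 3 of the markers of 21 classes among their 50 leading genes. Names were rebuilt here and may differ from the authors'. Levels are sums of UMIs with exact Poisson intervals, ratios have exact conditional intervals, shares Clopper-Pearson intervals and share ratios log-normal intervals, all at 95%. Per-cell counts used cells thinned to 2000 UMIs. The scripts were tested on simulated data.

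The members and lists were chosen with earlier results of these data known. In each of the 5 main classes the 3 highest, 3 lowest and 3 most abundant members were named, with Cdk1, Ccnb1, Top2a, Mki67, Plk1 and Cdc20 throughout, and of each other list the 2 most abundant and the 2 furthest from 1. Other genes given with values, and those named within single clusters or member-high cells, were chosen after their values were seen. Across the class sums and shares, 17 kinds of alternative were planned and 3 were added after seeing the data.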

Additional observations from a re-analysis of the deposited data

Results flagged for a closer look

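A signal of the members appeared in barcodes filled with haemoglobin, which form no class of the comparisons above. Among the alternatives counted below, the subtraction of free RNA took its estimate from these barcodes. Barcodes with over 80% haemoglobin UMIs numbered 830 in the control and 1127 in the knockout library and held 351 and 677 member UMIs, or 0.423 and 0.601 per barcode. Ube2c and Nusap1 together made up 88.9% of these in the control and 87.6% in the knockout library. Ube2c, the ubiquitin-conjugating enzyme of the anaphase-promoting complex, gave 218 of the 351 control UMIs (62.1%, 56.8% to 67.2%) and 58.6% of the knockout ones, against 6.44% and 6.22% of member UMIs in kept cells. Nusap1 gave 26.8% and 29.0%, against 3.09% and 3.52%. So 2 of 37 members dominated in these barcodes in both libraries, and the member mix differed from that of kept cells. The source of this signal was not tested.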

How the results depend on the processing

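Over the 5 main classes, 125 alternative values of the summed level and of the member-high share were computed: 106 stayed within the interval of the reported ratio, 17 moved outside it, and 2 fell on the other side of 1 from a reported interval that excludes 1. In all, 13 lay on the other side of 1 from the reported ratio, most of them for ratios whose interval holds 1; 66 were over 1 and 59 under 1. The acinar sum (reported 0.837) became 1.42 without clusters held over 90% by 1 library. It became 0.775 with a minimum of 1000 genes, 0.747 with enzyme, hormone, haemoglobin, mitochondrial and ribosomal protein genes left out of the total, and 0.707 when scaled to a median log2 ratio of 0. The acinar share became 1.16 at full depth. The ductal sum became 1.72 and its share 1.54 with cell cycle genes kept in the clustering, 0.998 as a mean over cells, and, chosen after seeing the data, 0.796 and 0.795 with the control's cluster makeup. The endocrine sum became 0.863 with cell cycle genes kept, 0.812 without enzyme and hormone genes, 0.783 when median-scaled and 0.786 as a mean over cells. It became 1.19 without sub-clusters led by other types, chosen after seeing the data. The mesenchymal sum became 1.14 at 1000 genes, 1.39 with cell cycle genes kept and 1.12 at resolution 2, and its share 5.23 with cell cycle genes kept. The endothelial sum ranged from 1.06 to 1.11. The acinar reversal rests on the cells left out, since cluster 4 holds 1 control cell. With cell cycle genes kept, dividing cells may leave their class, so those values may describe other cells. Apart from the acinar reversal, the cause of these changes was not tested. Leaving out clusters held by 1 library gave no value in the other 4 classes, which have no such cluster. No paired analysis was possible because each group is 1 library, and for the same reason no replicate could be left out. Depth limits the low members: Ttk and Kif2c had under 20 UMIs in the endocrine family.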
